A study of Mus musculus with 16 samples.

Results

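Complex III (cytochrome bc1), complex IV (cytochrome c oxidase) and ATP synthase form the last part of the mitochondrial respiratory chain. Complex III passes electrons from ubiquinol to cytochrome c, complex IV passes them on to oxygen, and ATP synthase uses the proton gradient that the chain builds to make ATP. A few core subunits are encoded in the mitochondrial genome, and the rest come from nuclear genes, some of which exist as isoforms that differ between tissues. Neurons are known for their high demand for oxidative ATP. The genes described here were the nuclear genes of these complexes, taken by symbol as every gene starting with Uqcr, with Cox4 to Cox8 or with Atp5, plus Cyc1, with symbols marked as pseudogenes left out. They numbered 44 of the 28683 genes listed in at least 1 library: 9 of complex III, 18 of complex IV and 17 of ATP synthase. The symbols also take in Cox7a2l, whose product joins complexes III and IV into supercomplexes, and Atp5s and Atp5sl, whose products are not regarded as ATP synthase subunits. They miss Ndufa4, which was named as a complex I subunit and is now counted with complex IV.

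The cells came from the hypothalamus and preoptic area (POA) of 16 female mice of a mixed CD-1;129P2 background, profiled by Drop-seq, in which each captured transcript is tagged near its 3' end by a code for its cell and by a molecular identifier (UMI) that marks the molecule, with 1 library per mouse. Wild-type mice, which were littermates without Cre, received corn oil (3 libraries) or tamoxifen (5 libraries), and Esr1cKO mice received corn oil (4 libraries) or tamoxifen (4 libraries). Tamoxifen was injected under the skin at 0.1 mg/kg, and all mice had 28 daily injections from an age of 8 to 10 weeks and were killed 2 h after the last one. Esr1cKO mice were homozygous for a floxed allele of Esr1, the gene of estrogen receptor alpha, and carried a BAC transgenic Nkx2-1-Cre. Only cells of the Nkx2-1 lineage were thus expected to lose the receptor. By immunostaining, the study reported loss of the receptor in several areas of the hypothalamus and POA. The deletion takes out an internal exon, so 3' counts of Esr1 do not check it: neurons held 60.1 ± 23.1 Esr1 UMIs per 1000000 UMIs (CPM) in wild-type oil libraries (SD, n = 3), 66.0 ± 7.88 in wild-type tamoxifen (n = 5), 48.7 ± 7.65 in Esr1cKO oil (n = 4) and 53.0 ± 26.3 in Esr1cKO tamoxifen libraries (n = 4). The study named oxidative phosphorylation among the gene sets it followed in these same samples, so the choice of these genes is not independent of the data. By gene set enrichment, with single cells as units, it reported this set as lower with tamoxifen in wild-type neurons and higher in Esr1cKO neurons. The group tests below take the mouse as the unit and each gene singly, so they do not repeat that measure.

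The 55675 cells kept held 1717570 to 5457030 UMIs per library, and the median cell of a library held 563 to 819 UMIs, so UMIs were added up within each type and library. Libraries S10 (wild-type, oil) and S11 (Esr1cKO, tamoxifen) stood apart from the rest. Their neuronal profiles had median correlations of 0.743 and 0.745 with the other libraries over 4274 genes and of 0.976 with each other, while those of the remaining 14 libraries were 0.913 to 0.955, and results below are given with and without the pair. Libraries also shared cell barcodes: 520 barcodes, in 1717 cells, occurred in more than 1 library, and the pairs among libraries S13 to S16 shared 303 to 359 each. Cells were clustered without the 44 genes. Each cell type was named from marker genes, although the other genes of the same cells defined it. The 11 neuronal markers summed to 19173 to 23573 CPM in neurons and the 9 microglial markers to 17794 to 27326 CPM in microglia. The 9 oligodendrocyte markers summed to at least 739 CPM in every other type, so some transcripts of other cells were counted in each type. Several of these subunit genes have processed pseudogenes in the mouse genome, and how reads were shared with them was not tested.

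To show the regulatory sequence next to some of these genes, promoter windows were read from RefSeq (GRCm38.p6), in which 31 of the 44 genes had an entry. The 4 printed below belong to members whose levels across cell types, described later, went apart from one another. Atp5g1 and Atp5g2 encode the same mature c subunit of the ATP synthase rotor, Cox6a1 encodes the widely expressed form of complex IV subunit 6A, and Cox7a2l is the supercomplex factor named above. Each sequence runs 5' to 3' and gives the bases before the annotated start that lie outside the gene itself. Capitals mark the NRF-1 core GCGCATGC and the ETS core CCGGAAG, on either strand.
Atp5g1, chr11:96075695-96075881, minus strand: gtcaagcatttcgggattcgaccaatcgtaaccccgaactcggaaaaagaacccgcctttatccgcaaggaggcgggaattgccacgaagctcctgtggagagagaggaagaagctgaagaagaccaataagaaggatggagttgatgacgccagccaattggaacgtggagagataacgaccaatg
Atp5g2, chr15:102671048-102671297, minus strand: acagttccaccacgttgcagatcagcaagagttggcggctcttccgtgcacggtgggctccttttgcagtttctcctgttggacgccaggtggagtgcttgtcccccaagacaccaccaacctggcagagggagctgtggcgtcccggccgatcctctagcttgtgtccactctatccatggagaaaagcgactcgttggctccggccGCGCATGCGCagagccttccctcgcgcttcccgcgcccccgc
Cox6a1, chr5:115348959-115349208, minus strand: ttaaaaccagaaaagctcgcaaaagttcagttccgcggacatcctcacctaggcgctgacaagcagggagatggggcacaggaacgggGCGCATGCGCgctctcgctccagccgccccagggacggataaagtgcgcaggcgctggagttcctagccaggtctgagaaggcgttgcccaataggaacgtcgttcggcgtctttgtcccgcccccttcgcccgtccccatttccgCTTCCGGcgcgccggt
Cox7a2l, chr17:83514334-83514583, minus strand: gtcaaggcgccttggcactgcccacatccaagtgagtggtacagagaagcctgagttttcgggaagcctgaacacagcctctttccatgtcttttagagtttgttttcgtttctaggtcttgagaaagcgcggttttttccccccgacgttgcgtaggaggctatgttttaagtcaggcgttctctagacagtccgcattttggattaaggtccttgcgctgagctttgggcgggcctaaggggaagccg
In the Atp5g2 and Cox6a1 windows the NRF-1 core occurred on both strands over the same bases, starting at bases 209 and 211 in Atp5g2 and at bases 89 and 91 in Cox6a1, and Cox6a1 also held the ETS core at base 235. Over the full windows, which reach from 250 bases before to 50 after the start, 6 of 31 members held the NRF-1 core (19.4%), against 2.80% of 27025 promoters. The ETS core was in 9 of 31 members (29.0%) and in 9.12% of all promoters. The YY1 core AAGATGGC was in 1 of 31 members (3.23%), the ATP synthase gene Atp5j2, and in 2.88% of all promoters. These are matches of letters only.

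Neurons and mural cells, the pericytes and smooth muscle cells of vessel walls, gave the largest share of their transcripts to the 44 genes, and microglia the smallest. The genes made up 1.46% ± 0.164 of the UMIs of neurons (SD, n = 16 libraries, range 1.198 to 1.75) and 1.44% ± 0.179 of those of mural cells (1.10 to 1.77). The share was 1.12% ± 0.163 in fibroblasts, 1.05% ± 0.162 in astrocytes, 1.001% ± 0.103 in endothelial cells, 0.953% ± 0.121 in polydendrocytes, the oligodendrocyte precursors, 0.933% ± 0.0975 in oligodendrocytes and 0.897% ± 0.112 in ependymal cells. Neighbours in this middle range differed by less than the spread between libraries. In microglia the share was 0.559% ± 0.0668 (0.417 to 0.677), so its highest library lay below the lowest library of neurons and of mural cells. Neurons and mural cells were the highest pair in 16 of 16 libraries, and microglia were lowest in 16 of 16. All 3 complexes took part: complex III, complex IV and ATP synthase gave 0.247%, 0.601% and 0.613% of neuronal UMIs and 0.0963%, 0.238% and 0.224% of microglial UMIs. Over all cells the share was 1.12% ± 0.135, and 1.09% ± 0.129 without libraries S10 and S11 (n = 14). All transcripts of the mitochondrial genome together did not follow this order, with 4.21% of UMIs in neurons, 6.17% in microglia and 8.06% in mural cells. Its genes of complexes III to V alone gave 0.452% ± 0.0987, 0.419% ± 0.106 and 0.896% ± 0.197 in the same types. Their share was lowest in polydendrocytes (0.389% ± 0.0979). This sum came almost wholly from mt-Cytb (complex III, 235545 UMIs) and mt-Co1 (complex IV, 68509 UMIs). The genes mt-Co2, mt-Co3, mt-Atp6 and mt-Atp8 held 2 to 64 UMIs each, so the sum hardly covers ATP synthase.

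**Figure D1:**
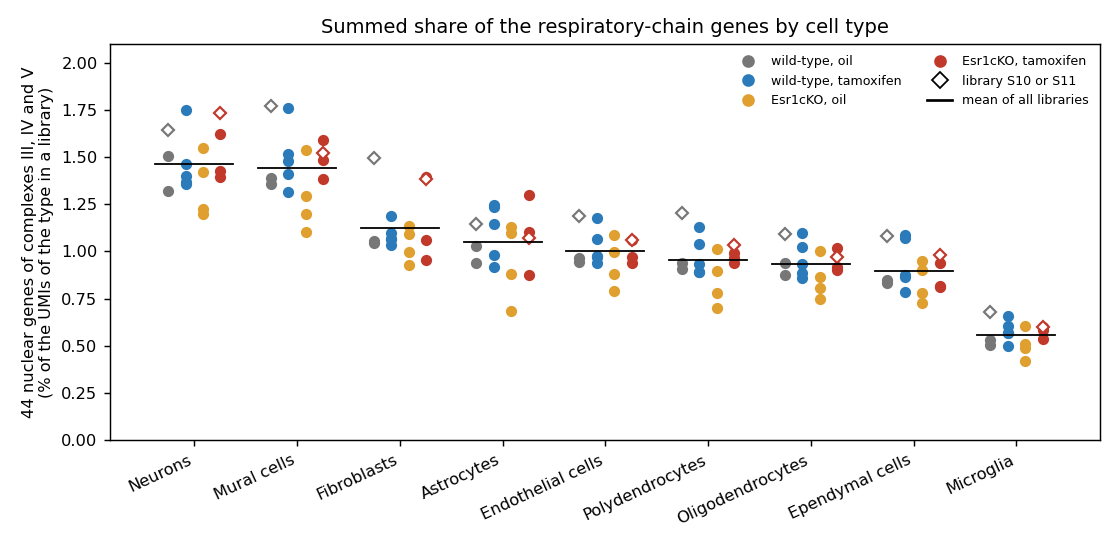
Share of the UMIs of a cell type that came from the 44 nuclear genes of complexes III and IV and ATP synthase (y axis, percent), for 9 cell types (x axis), with 1 point per library coloured by group, open diamonds for libraries S10 and S11 and a line at the mean of all libraries. Every neuronal and mural point lies above every microglial point, whose highest value is 0.677%.

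Most of the 44 genes shared this pattern. Of the 38 genes tested in all 9 types, 19 had their highest mean level in neurons and 13 in mural cells, and 34 had their lowest in microglia. Each gene's level correlated over the 9 types with the sum of the others at a median r of 0.894, and 28 genes exceeded 0.8, a description over types that share libraries. No such counts or correlations over all genes are given here, so these values do not set the 44 genes apart from other genes. The least alike were Atp5sl (r = -0.18), the complex IV isoform gene Cox6b2 (0.11), Cox7a2l (0.15), Atp5s (0.19) and Atp5g2 (0.28).

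In neurons, 36 of 40 genes tested were higher and 3 lower than in all other cells of the same library (edgeR's quasi-likelihood test with library as a block, adjusted p under 0.05 over all genes tested). Of all 13061 genes tested, 40.4% were called higher and 41.3% lower. The members' median log2 fold change was 0.51, against 0.00 for all genes. All 9 genes of complex III, 16 of 17 of ATP synthase and 11 of 14 of complex IV were higher, and 35 were higher and 3 lower under each of 3 ways of scaling the libraries: TMM, the main one, DESeq2's size factors, and library totals alone. Levels in CPM are not TMM-scaled, and fold changes are. Without libraries S10 and S11 the counts were 35 and 2, and Cox7a1 was not tested.

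Among the genes higher in neurons the largest differences were those of Atp5g1 and Atp5g3, genes of subunit c of the rotor. Atp5g1 reached 425 ± 70.9 CPM in neurons (n = 16, lowest 307, median 441, highest 527) and 164 ± 31.0 in the other cells (113, 163 and 232), so that no neuronal library overlapped the rest. Its log2 fold change was 1.32 ± 0.05 (SE, adjusted p = 4.16e-19), and 1.28 without S10 and S11. Atp5g3, the third gene for subunit c, stood at 494 ± 68.2 CPM (413, 485 and 644) against 215 ± 26.8 (180, 211 and 264), or 1.14 ± 0.04 in log2 fold change (adjusted p = 1.13e-19), and 1.12 without the pair. Atp5g2 did not follow. Its level was 48.7 ± 16.02 CPM in neurons (18.7, 46.9 and 78.4) and 45.5 ± 9.71 in the rest, the libraries overlapped, and its log2 fold change was 0.01 ± 0.08 (adjusted p = 0.883), with -0.04 under DESeq2's size factors, 0.06 under library totals and -0.03 without S10 and S11. Of the UMIs of the 3 subunit c genes, Atp5g1 gave 43.8% in neurons, 51.3% in oligodendrocytes, 30.1% in astrocytes and 28.3% in mural cells. Atp5g2 gave 5.01%, 11.3%, 8.96% and 8.30% in the same types, and Atp5g3 gave the remainder, which was 60.9% in astrocytes and 63.4% in mural cells.

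The cores of all 3 complexes were also higher in neurons, by less. Of the F1 part of ATP synthase, which makes ATP, the log2 fold changes in neurons were 0.54 for Atp5a1 (alpha), 0.51 for Atp5b (beta) and 0.45 for Atp5c1 (gamma). Of complex III, they were 0.68 for the core subunit gene Uqcrc2, 0.38 for its partner Uqcrc1, 0.42 for cytochrome c1 (Cyc1) and 0.28 for the Rieske iron-sulfur protein (Uqcrfs1). Of complex IV, whose nuclear subunits surround a core encoded in the mitochondrial genome, Cox7b had 1.06 ± 0.05 (526 ± 86.6 against 243 ± 39.3 CPM, adjusted p = 9.54e-18). Cox5a, at 154 ± 38.9 CPM in neurons (99.97, 153 and 255) and 75.7 ± 18 in the rest, had 0.97 ± 0.06 (adjusted p = 5.57e-14, and 0.94 without S10 and S11). Cox5b had 0.76, Cox4i1 0.44, and the widely expressed isoform genes Cox7a2, Cox6b1, Cox8a and Cox6a1 had 0.70, 0.64, 0.52 and 0.29, all past the threshold. The genes lower in neurons were all isoform genes of complex IV: Cox4i2 (-3.76 ± 0.22), Cox6b2 (-2.00 ± 0.20) and Cox7a1 (-0.54 ± 0.18, adjusted p = 0.00916).

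Microglia showed the opposite, with 34 of 38 genes lower and 1 higher (background 43.7% lower and 30.2% higher), a members' median of -0.70 and a median of -0.20 over all genes. The 34 and the 1 were called under all 3 scalings, and the counts were 32 and 2 without S10 and S11. Of ATP synthase 14 of 17 genes were lower, of complex III all 9 and of complex IV 11 of 12. Atp5g3 fell from 320 ± 46.9 CPM in the other cells to 101 ± 27.0 in microglia (log2 fold change -1.28 ± 0.09, adjusted p = 1.35e-17, and -1.203 without the pair). Atp5k, a small subunit of the membrane part, stood at 99.6 ± 23.7 against 290 ± 38.1 CPM (-1.14 ± 0.09, adjusted p = 2.4e-16), and the largest fold was that of Cox6b2 (-1.63). The exception was Cox7a2l, at 217 ± 40.6 CPM in microglia (150, 214 and 315) and 175 ± 22.6 in the rest, higher in 15 of 16 libraries, its log2 fold change being 0.68 ± 0.08 (adjusted p = 2.9e-11, and 0.78 without S10 and S11). Ribosomal protein genes were at 5.57% of UMIs in microglia and 3.39% in neurons, and their part in the difference was not tested. The microglial cluster also held 6 of 6 perivascular macrophage markers, which summed to 700 to 1972 CPM in its libraries. Neutrophil markers summed to 0 to 4483 CPM (median 7.31). At a resolution of 0.5 a cluster of 787 cells was named perivascular macrophages. The part of such cells in the microglial values was not tested.

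In mural cells 25 of 39 genes were higher and 3 lower (background 15.5% higher and 38.9% lower), with a members' median of 0.32 and a median of -0.31 over all genes. Under DESeq2's size factors 8 were higher and 8 lower, with medians of 0.01 and -0.65, and under library totals 26 and 3. The 8 genes higher under all 3 scalings were Atp5a1, Atp5b, Atp5d, Cox4i2, Cox6c, Cox8a, Uqcrb and Uqcrh. Cox8a stood at 818 ± 139 CPM against 425 ± 76.4 (log2 fold change 0.95 ± 0.10, adjusted p = 1.19e-21), and Atp5b at 713 ± 103 against 417 ± 54.8 (0.79 ± 0.10, adjusted p = 8.47e-15). Lower were Atp5sl (-0.93 ± 0.34, adjusted p = 0.0129), Atp5s (-0.92) and Atp5g1 (180 ± 72.9 against 250 ± 54.6 CPM, -0.33 ± 0.12, adjusted p = 0.0163). Atp5sl and Atp5g1 missed the threshold without S10 and S11, at adjusted p of 0.087 and 0.0573, and Atp5g1 also missed it with 11 of the 16 libraries left out one at a time. Among cells with a mitochondrial share under 5%, 1 gene was called higher in mural cells, whose mitochondrial share averaged 8.06% over all cells kept.

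The remaining types lay between these extremes. In polydendrocytes 28 of 38 genes were lower and 0 higher (background 33.5% and 31.2%), led by Atp5sl (-0.94 ± 0.18), Cox7a2l (109 ± 25.6 against 184 ± 22.3 CPM, -0.83 ± 0.08) and Cox4i1, the widely expressed form of subunit 4 (564 ± 82.0 against 836 ± 109 CPM, -0.65 ± 0.05). In ependymal cells 25 of 38 were lower and 2 higher (background 34.8% and 30.1%), with Cox5a at -0.67, Atp5c1 at -0.58 and Cox6a1 at -0.57, and with Cox6b2 and the small F1 subunit gene Atp5e higher (Atp5e 0.38 ± 0.08). These counts were 27 and 0, and 23 and 2, without S10 and S11. The ependymal cluster also held 5 of 6 tanycyte markers, and the choroid plexus markers summed to 16.9 to 112646 CPM in its libraries (median 83.3). At a resolution of 0.5, where tanycytes formed a cluster of their own (1295 cells), 19 of 38 genes were lower in ependymal cells and 2 higher, and the part of choroid plexus cells was not tested. Astrocytes had 18 of 39 genes higher and 8 lower (background 32% and 41.6%), of which 7 and 8 held under all 3 scalings. Library totals gave 7 higher and 17 lower, and cells with a mitochondrial share under 5% gave 4 higher and 15 lower, the members' median moving from 0.12 to -0.06 and -0.17. Uqcrfs1 was the clearest, at 214 ± 40.6 CPM in astrocytes (131, 213 and 277) against 137 ± 16.7, higher in 16 of 16 libraries (0.80 ± 0.06, adjusted p = 2.01e-15), and Atp5sl had 0.83 ± 0.12. Lower in astrocytes were Cox4i2 (-1.67), Cox7a2l (96.8 ± 25.6 against 191 ± 25.7 CPM, -0.84 ± 0.09) and Atp5g1 (155 ± 28.5 against 264 ± 59.3 CPM, -0.58 ± 0.07).

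For oligodendrocytes, endothelial cells and fibroblasts, too, the count depended on the scaling. Oligodendrocytes had 15 of 38 genes higher and 13 lower (background 32.8% and 42.6%), but 10 of the 15 had a lower mean CPM than the rest, and library totals gave 1 higher and 29 lower, with the median of all genes moving from -0.09 to -0.53. The gene higher under all 3 scalings was Cox6a1, at 643 ± 92.5 against 516 ± 76.6 CPM (0.73 ± 0.05, adjusted p = 1.25e-15), and Atp5g3 was lowest, at 148 ± 22.2 against 332 ± 51.3 CPM (-0.75 ± 0.05, adjusted p = 1.04e-14), followed by Cox5a (-0.54) and Cox7b (-0.47). Endothelial cells had 13 of 39 higher and 12 lower (background 36.2% and 40.3%), 7 and 25 under DESeq2's size factors and 6 and 27 under library totals. Higher under all 3 were Atp5e, Atp5j, Cox4i2, Cox7a2l, Uqcrb and Uqcrh. Atp5j, a subunit of the stalk that joins both parts of the enzyme, stood at 603 ± 76.9 against 405 ± 60.02 CPM (0.82 ± 0.06, adjusted p = 1.32e-14), and Cox7a2l at 245 ± 37.3 against 168 ± 22.3 CPM (0.78 ± 0.06, adjusted p = 8.2e-14). Lower were Cox6b2 (-1.07), Atp5s (-0.69) and Atp5g1 (138 ± 28.2 against 266 ± 56.3 CPM, -0.69 ± 0.06). In the endothelial cluster red blood cell markers summed to 5987 to 36020 CPM (median 26123) and endothelial markers to 16044 to 19350. At a resolution of 0.5 a cluster of 379 cells named endothelial was led by globin genes. The part of globin transcripts or of such cells in the endothelial values was not tested. Fibroblasts had 6 of 39 higher and 6 lower (background 15.7% and 29.5%), 2 and 15 under DESeq2's size factors and 3 and 8 without S10 and S11, and higher under all 3 scalings were Cox6b2 and Uqcrh (0.50 ± 0.11). Among genes lower in fibroblasts were Cox4i2 (-1.44 ± 0.57, adjusted p = 0.0304, and 0.0511 without S10 and S11), Atp5g2 (23.5 ± 18.04 against 46.9 ± 10.9 CPM, -0.87 ± 0.28) and Uqcrfs1 (-0.45). Without S10 and S11, oligodendrocytes had 16 higher and 11 lower, endothelial cells 12 and 12, and astrocytes 20 and 6.

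**Figure D2:**
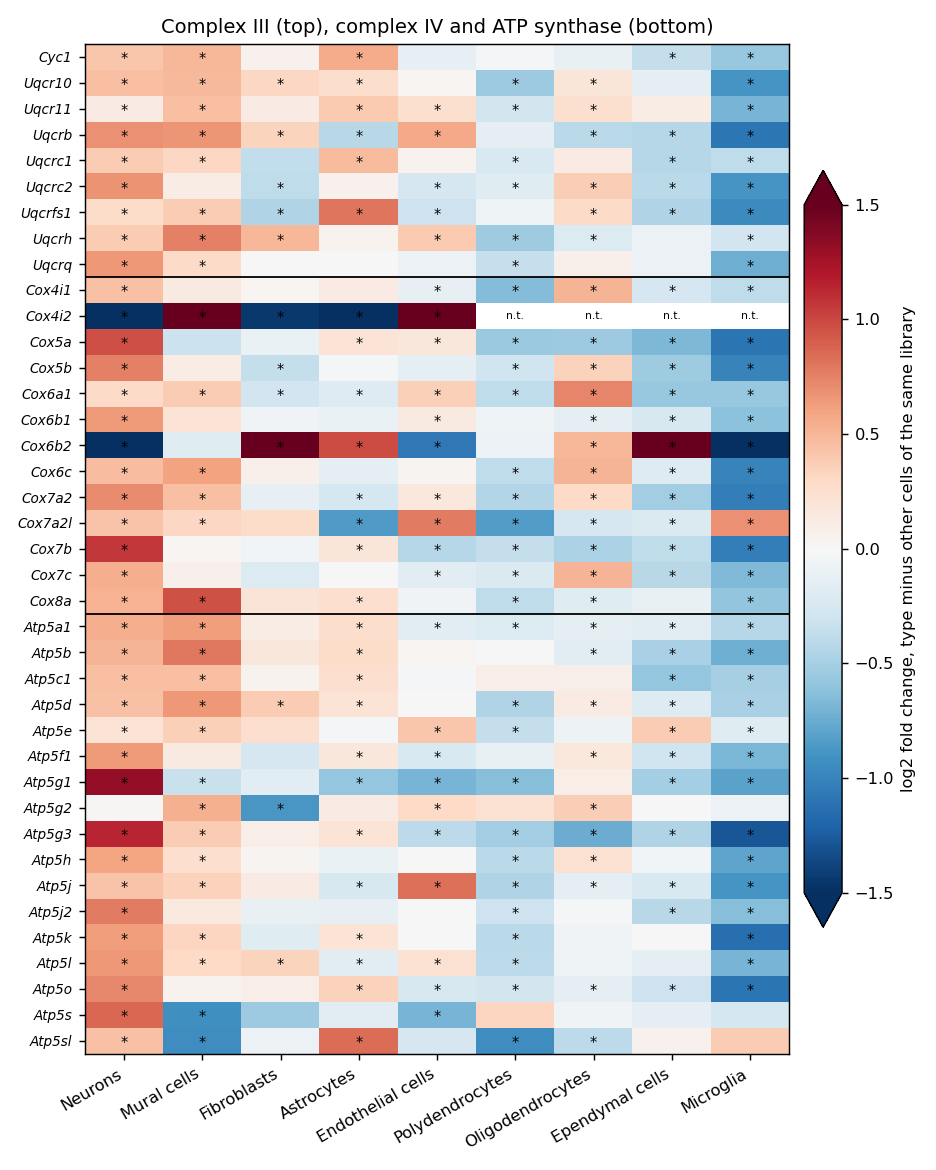
Log2 fold change of each gene (rows, ordered by complex) in each of 9 cell types (columns) against the other cells of the same libraries, as colour, from edgeR with all 16 libraries. The neuronal column is higher for 36 genes and the microglial column is lower for 34.

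The isoform genes of complex IV set themselves apart by cell type. Cox4i2 (chr2:152753916-152765039, GRCm38.p6) encodes the second form of subunit 4, which is known from lung and from oxygen sensing in smooth muscle. It stood at 171 ± 59.3 CPM in mural cells (72.8, 184 and 259) and 9.21 ± 2.71 in all other cells, with no overlap (log2 fold change 4.22 ± 0.16, adjusted p = 6.14e-151, and 4.29 without S10 and S11). In endothelial cells it stood at 54.9 ± 17.6 CPM (32.7, 45.5 and 89.8) against 6.77 ± 3.12 (3.14 ± 0.18, adjusted p = 3.92e-16). For every 100 UMIs of Cox4i1 there were 19.5 of Cox4i2 in mural cells (8.16 to 28.5 over libraries), 8.14 in endothelial cells (5.61 to 12.8) and 0.560 in fibroblasts. The 9 mural markers summed to 22967 to 36782 CPM in mural cells, 3592 to 8003 in endothelial cells and at most 2351 in any other type, and none of the 9 was at 0 in endothelial cells. Cox4i2 held 0.582 UMIs per 100 UMIs of these markers in mural and 0.898 in endothelial cells. This ratio was also high where Cox4i2 itself was rare, at 3.42 in astrocytes (33 Cox4i2 UMIs) and 2.44 in oligodendrocytes (13). In fibroblasts (5 Cox4i2 UMIs) it was 0.377. At a resolution of 0.5, a cluster of 1601 cells named endothelial held 8 of the 9 mural markers, with Rgs5, Vtn and Kcnj8 among its leading genes. Those of the mural cluster compared here included Acta2, Myh11 and Tagln, so the mural and endothelial ratios may rest on different markers. The part of mural cells or transcripts in the endothelial value was not tested. In neurons Cox4i2 was at 1.32 ± 1.31 CPM (0 to 3.80).

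Cox6b2, whose product is best known as the testis form of subunit 6B, was highest in fibroblasts, at 101 ± 53.6 CPM (35.3, 77.0 and 195) against 15.01 ± 3.86 (log2 fold change 2.72 ± 0.22, adjusted p = 1.82e-24). In ependymal cells, which line the ventricle, it stood at 60.2 ± 33.5 CPM (26.4, 43.6 and 138) against 13.5 ± 3.31 (1.98 ± 0.17, adjusted p = 3.2e-12), and in astrocytes at 26.5 ± 5.93 against 15.1 ± 4.39 (0.98 ± 0.14). It was lowest in neurons, at 5.23 ± 4.28 CPM against 21.9 ± 5.82, and in microglia. The other isoform genes were rare. Cox6a2, the heart and muscle form of subunit 6A, held 220 UMIs in neurons, where its level of 11.2 ± 5.89 CPM was above that of the rest in 16 of 16 libraries, and 53 in microglia (12.9 CPM), and it passed the filter for no comparison between cell types. Cox7a1, the muscle form of subunit 7A, stood at 34.2 CPM in mural cells (40 UMIs), 31.5 in fibroblasts (28), 20.8 in ependymal cells (103) and 5.61 in neurons (101). Cox7b2 held 90 UMIs in astrocytes and 101 in neurons, Cox8b at most 8 in any type and Cox8c at most 1. Uqcrhl was not among the genes found.

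**Figure D3:**
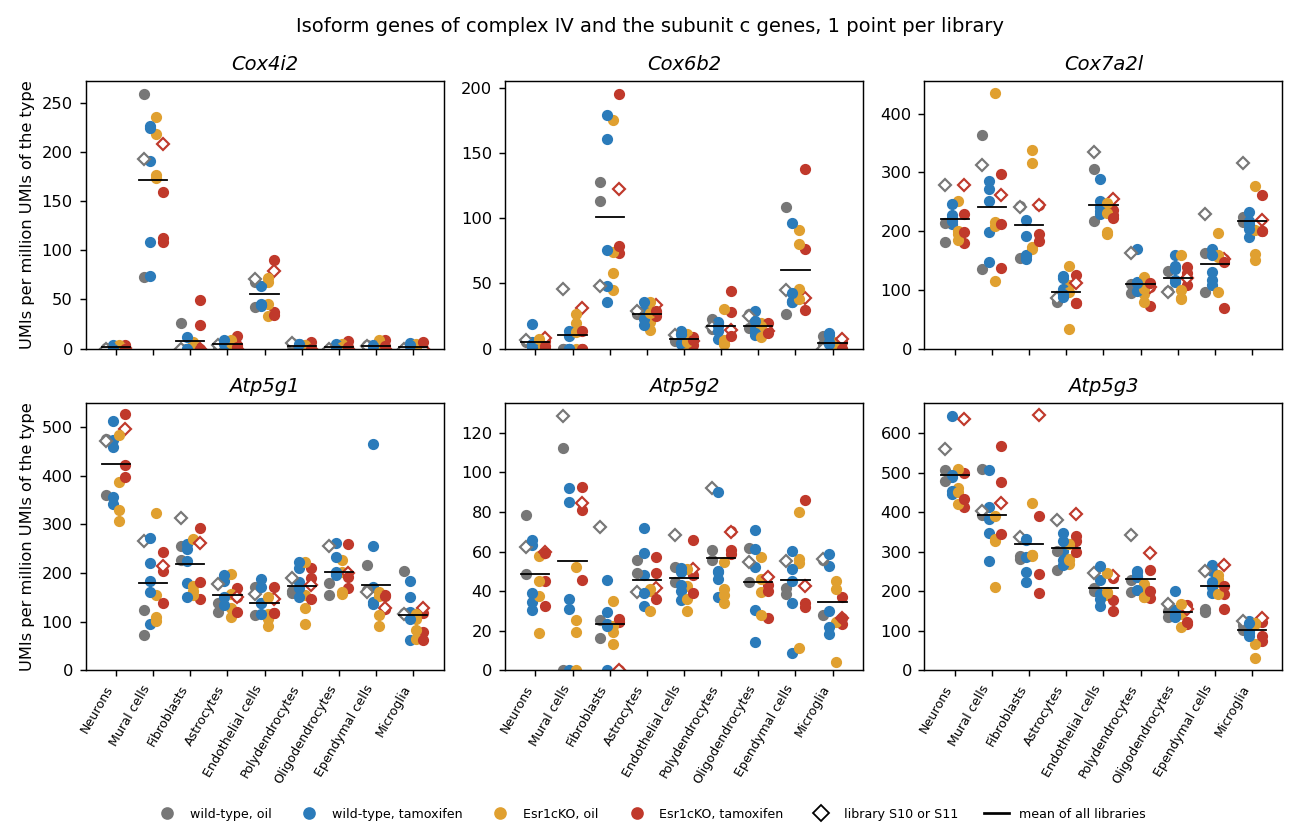
Level (y axis, CPM, 1 scale per panel) of 3 isoform genes of complex IV and the 3 subunit c genes in 9 cell types (x axis), with 1 point per library coloured by group, open diamonds for libraries S10 and S11 and a line at the mean. Cox4i2 stands out in mural and endothelial cells, Cox6b2 in fibroblasts and ependymal cells, and Atp5g1 and Atp5g3, but not Atp5g2, in neurons.

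Other genes of the respiratory chain, taken from fixed lists, went partly the same way. The background of each cell type is the one given above. The genes of these lists were counted under TMM alone, here and below. In neurons all 36 complex I subunit genes tested were higher (median 0.68), Ndufa4 among them (1.07). So were 15 of 22 assembly factor genes of complexes III to V (0 lower, median 0.54) and 3 of 4 complex II genes (Sdhb 0.64, with Sdhc lower at -0.24). Of 9 genes of cytochrome c, supercomplexes and exchange across the mitochondrial membranes, 8 were higher (Cycs, cytochrome c itself, 0.998) and Slc25a5 was lower (-0.78). Regulators of mitochondrial gene expression did not go the same way: 2 of 8 were higher and 5 lower. Higher were the coactivator gene Ppargc1b (0.89) and Tfam (0.27). Lower were Gabpa (-1.18), Esrra (-0.32), the coactivator gene Ppargc1a (-0.27), Yy1 (-0.26) and Nrf1 (-0.24). The mitochondrial genes of the same complexes were lower in neurons, mt-Cytb (complex III) at -0.26 and mt-Co1 (complex IV) at -0.48. mt-Cytb and mt-Co1 held 235545 and 68509 UMIs, while mt-Co2, mt-Co3, mt-Atp6 and mt-Atp8 held 2 to 64 and were not tested. In microglia 35 of 36 complex I genes were lower and 1 higher (median -0.87), all 4 complex II genes were lower, and Cycs stood at -1.09. mt-Cytb (0.07) and mt-Co1 (0.05) did not pass the test there. In mural cells 16 of 36 complex I genes were higher and 3 lower. The complex II gene Sdhc had 1.57, Cycs 0.71, mt-Cytb 0.79 and mt-Co1 0.74. The coactivator genes Ppargc1a and Ppargc1b had -1.36 and 2.15. Of the 25 members called higher in mural cells, 8 held under all 3 scalings. Whether the mural results of these other lists also depend on the scaling was not tested.

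Neurons were then compared among themselves. They were clustered again without the 44 genes, and each cluster is called by its leading gene. Of 23 clusters, 22 had enough cells in at least 4 libraries. The summed share of the 44 genes ran from 0.231% ± 0.0570 in B230323A14Rik-led (n = 10) and 0.273% ± 0.0724 in Lrrtm4-led (n = 14) to 1.74% ± 0.189 in Meis2-led (n = 16) and 1.96% ± 0.250 in Foxb1-led neurons (n = 14). In the 2 highest clusters the share without S10 and S11 was 1.70% and 1.92%.

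**Figure D4:**
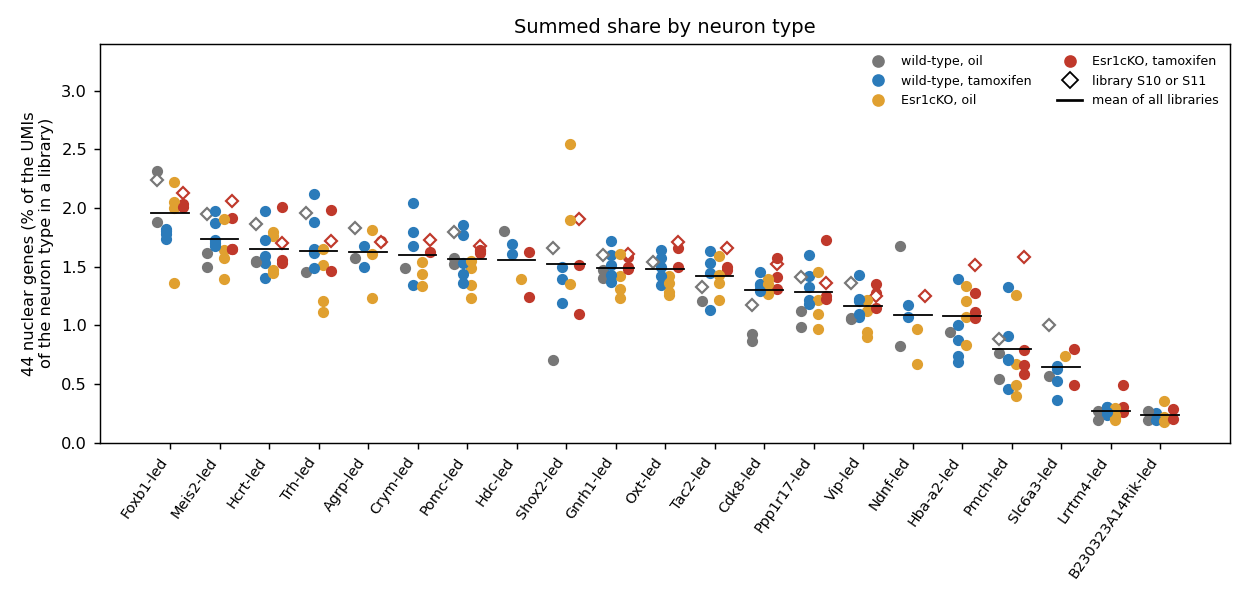
Share of the UMIs of a neuron type that came from the 44 genes (y axis, percent), for neuron types ordered by their mean (x axis), with 1 point per library coloured by group, open diamonds for libraries S10 and S11 and a line at the mean. Foxb1-led neurons average 1.96% and Lrrtm4-led and B230323A14Rik-led neurons lie at 0.273% and 0.231%.

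Foxb1-led neurons (276 cells, with Foxb1, a factor known from the mammillary body, B230323A14Rik and Cpne9 among the leading genes) had 24 of 36 genes higher than other neurons and 0 lower (background 9.67% higher), with a members' median of 0.39 and a median of -0.07 over all genes. Cox5a stood at 308 ± 122 CPM (117, 304 and 527) against 143 ± 32.0 (log2 fold change 1.03 ± 0.14, adjusted p = 1.97e-10). Uqcr10, a small subunit of complex III, stood at 576 ± 107 against 332 ± 49.6 CPM, higher in 14 of 14 libraries (0.72 ± 0.11, adjusted p = 8.7e-09), and Atp5b at 821 ± 243 against 519 ± 78.2 CPM (0.63 ± 0.10, adjusted p = 2.31e-07). Meis2-led neurons (965 cells, with the GABAergic genes Gad2 and Slc32a1 among the leading ones) had 30 of 36 higher (background 10% higher), with medians of 0.32 and 0.01. Cox5b stood at 343 ± 30.9 CPM (283, 347 and 389) against 250 ± 33.7, higher in 16 of 16 libraries (0.46 ± 0.06, adjusted p = 4.61e-08), Cox5a at 207 ± 68.2 against 145 ± 37.4 CPM (0.47 ± 0.08, adjusted p = 8.44e-06), and Cyc1 had 0.47 ± 0.09. Hcrt-led neurons (684 cells), named for the orexin precursor gene, had 17 of 36 higher (background 8.62% higher), with medians of 0.19 and -0.01. Atp5g3 stood at 626 ± 114 against 477 ± 67.6 CPM there (0.39 ± 0.06, adjusted p = 2.07e-06, higher in 16 of 16 libraries), followed by Atp5o (0.38) and Cox5a (0.36). All calls in these 3 clusters held under each of the 3 scalings, and without S10 and S11 the counts were 26, 30 and 19. Other settings lowered 2 of them: Hcrt-led neurons had 2 higher with no filter on low counts, 2 with cells of a mitochondrial share under 5% and 5 in wild-type libraries alone, and Foxb1-led neurons had 5 with no filter and 14 in wild-type libraries alone. Complex I genes moved with them: 16, 29 and 13 of 36 were higher and 0 lower, while mt-Cytb and mt-Co1 were both lower in Meis2-led and Hcrt-led neurons.

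Vip-led neurons (895 cells, led by Vip, Vipr2, Rgs16, Prokr2 and Nms, genes known from the suprachiasmatic nucleus) had 25 of 36 genes lower and 0 higher (background 18.5% lower), 22 without S10 and S11, with a members' median of -0.31 and a median of 0.01 over all genes. Uqcr10 stood at 202 ± 63.8 CPM (88.3, 195 and 290) against 352 ± 49.3 (-0.72 ± 0.10, adjusted p = 7.66e-10), and Cyc1 at 102 ± 49.1 against 155 ± 23.4 CPM (-0.66 ± 0.14). Atp5g3 stood at 308 ± 62.7 against 509 ± 70.2 CPM and was lower in 16 of 16 libraries (-0.60 ± 0.08, adjusted p = 5.43e-10). Of complex I, 15 of 36 genes were lower and 2 higher. Ppp1r17-led neurons (273 cells) had 17 of 36 lower (background 9.77% lower), led by Cox5a (-0.73 ± 0.22), Uqcrq (277 ± 130 against 434 ± 58.6 CPM, -0.71 ± 0.14) and Uqcrc2 (-0.63), but 9 under DESeq2's size factors, 8 under library totals, 9 without S10 and S11 and 10 without S11 alone.

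Lrrtm4-led neurons (985 cells, with Lingo2, Sgcz, Fgf14 and Dlg2, long genes of the synapse and membrane, among the leading ones) had 34 of 35 genes lower (background 40.6% lower), with medians of -2.42 and -0.07, and the same 34 under each scaling. Cox5b stood at 29.3 ± 32.3 CPM against 279 ± 34.7 (-3.21 ± 0.22, adjusted p = 2.89e-22), Cox7a2 at 75.8 ± 60.8 against 606 ± 80.3 CPM (-2.97, adjusted p = 9.32e-28), and Atp5e had -2.99. Of complex I, 35 of 36 genes were lower, whereas mt-Cytb and mt-Co1 were both higher. Ribosomal protein genes were at 0.643% of UMIs there and at 3.39% in all neurons, and transcripts of the mitochondrial genome at 7.05% and 4.21%. The neuronal markers summed to 32735 to 43817 CPM. B230323A14Rik-led neurons (97 cells) shared these features, with 35 of 36 genes lower (background 53.8% lower, 33 under all 3 scalings), Cox6b1 at -5.09, Uqcrfs1 at -4.89 and Atp5g3 at -4.84, each with a median level of 0 CPM over the libraries, and ribosomal protein genes at 0.385% of UMIs. Neither cluster held enough cells of S10 or S11 to enter those libraries, and the part of RNA quality or of the compartment the RNA came from was not tested.

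In 4 more clusters most genes were called lower together with much of the transcriptome: 36 of 36 in Slc6a3-led (background 66.9% lower), 34 of 34 in Pmch-led (53.6% lower), 31 of 34 in Hba-a2-led (45.1% lower) and 27 of 36 in Ndnf-led cells (33.3% lower). The leading genes of the Hba-a2-led cluster, of 116 cells, were the globin genes Hba-a2, Hba-a1, Hbb-bs and Hbb-bt and the vessel-cell genes Flt1 and Rgs5, so it is not called neurons here, although it was clustered with them. Under library totals these counts were 10, 31, 0 and 0. The median cell held 380 UMIs in Slc6a3-led, 367 in Pmch-led and 381.5 in Hba-a2-led cells, against 1490 in all neurons. In the other 11 types together, 8 of 402 tests of members were called higher and 8 lower (background 13.6% in either direction). Crym-led neurons had Cox6c, a subunit of complex IV, at 1759 ± 510 against 772 ± 97.1 CPM, higher in 10 of 10 libraries (0.91 ± 0.13, adjusted p = 1.32e-11), and Uqcrb at -0.62. Pomc-led neurons, named for the melanocortin precursor gene, had Atp5b at 385 ± 94.8 against 547 ± 73.3 CPM (-0.58 ± 0.13, adjusted p = 0.000227). Cox7a2l was higher in Agrp-led neurons, at 463 ± 133 against 226 ± 31.5 CPM in 9 of 9 libraries (0.66 ± 0.22, adjusted p = 0.0442, and 0.21 without S10 and S11, and past the threshold with only 1 of the 9 libraries left out in turn), and in Gnrh1-led neurons (0.24 ± 0.07, adjusted p = 0.00519), which also had Uqcrb at 0.17. These calls held under all 3 scalings. Those of Oxt-led (4 higher, with Cox7a2l at 0.44, Uqcrh at 0.38 and Atp5g1 at 0.37), Hdc-led (2 lower, Atp5g1 at -1.03 and Atp5j at -0.84), Cdk8-led (3 lower, Atp5g1, Atp5c1 and Cox6c) and Shox2-led neurons (1 lower, Atp5j2 at -0.63) did not. Trh-led and Tac2-led neurons had 0 calls by edgeR.

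The groups of mice were compared within each of the 9 cell types, to ask whether tamoxifen or the loss of Esr1 changed these genes. None of the 328 tests of members passed in any of the 5 contrasts (edgeR's quasi-likelihood test with Benjamini-Hochberg adjustment), with or without S10 and S11. The background was 0% of 64914 tests for tamoxifen in wild-type mice, for tamoxifen in Esr1cKO mice, both against oil, for the interaction (the tamoxifen effect in wild-type mice minus that in Esr1cKO mice) and for Esr1cKO against wild-type under oil, and 0.00154% for Esr1cKO against wild-type under tamoxifen. At an unadjusted p under 0.05 there were 5, 8, 8, 12 and 4 members in that order, beside 2123, 2320, 3156, 3141 and 2071 of the 64914 tests of all genes. Without S10 and S11 there were 15, 10, 7, 10 and 5 members, beside 3458, 2965, 3762, 3969 and 2407 of 66339 tests. Past the adjusted threshold that setting called 0 genes higher and 6 lower, 6 and 1, 3 and 13, 0 and 3, and 11 and 1, in the same order. No member was among them. With all 16 libraries DESeq2's test gave 3, 8, 6, 11 and 4 members at an unadjusted p under 0.05 and also called 0 members. The contrasts that share the oil or the tamoxifen libraries are not independent of each other. Complex I genes and the assembly factors had 0 calls as well.

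The shares of the 44 genes in neurons overlapped among the groups. They were 1.49% ± 0.162 in wild-type oil (n = 3, 1.32 to 1.65) and 1.47% ± 0.164 in wild-type tamoxifen libraries (n = 5, 1.35 to 1.75). In Esr1cKO libraries they were 1.35% ± 0.166 under oil (n = 4, 1.198 to 1.55) and 1.55% ± 0.163 under tamoxifen (n = 4, 1.40 to 1.74). Without S10 and S11 the share was 1.41% ± 0.130 in wild-type oil (n = 2) and 1.48% ± 0.125 in Esr1cKO tamoxifen libraries (n = 3). The wild-type oil mean then lay below the wild-type tamoxifen mean. In Esr1cKO mice the members' median log2 fold change for tamoxifen was above 0 in 9 of 9 types, at 0.11 to 0.23, and 0.03 to 0.19 without S10 and S11. The median over all genes ran from -0.03 to -0.006, and from -0.02 to 0.007 without the pair. The 9 types come from the same libraries and are not independent of each other. In wild-type mice the members' median ran from -0.21 to 0.08, and from 0.00 to 0.18 without the pair. For Esr1cKO against wild-type it ran from -0.25 to -0.11 under oil and from -0.08 to 0.13 under tamoxifen. Without S10 and S11 these ranges were -0.08 to 0.01 and -0.17 to 0.02, and under oil it was -0.08 to 0.02 without S10 alone, above 0 in 4 of 9 types. The median of the interaction ran from -0.27 to -0.04, and from -0.09 to 0.19 without the pair. The lowest share of a type was in library S14 (Esr1cKO, oil) in 6 of 9 types and in S7 (Esr1cKO, oil) in the other 3, and the highest was in S10 in 5.

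**Figure D5:**
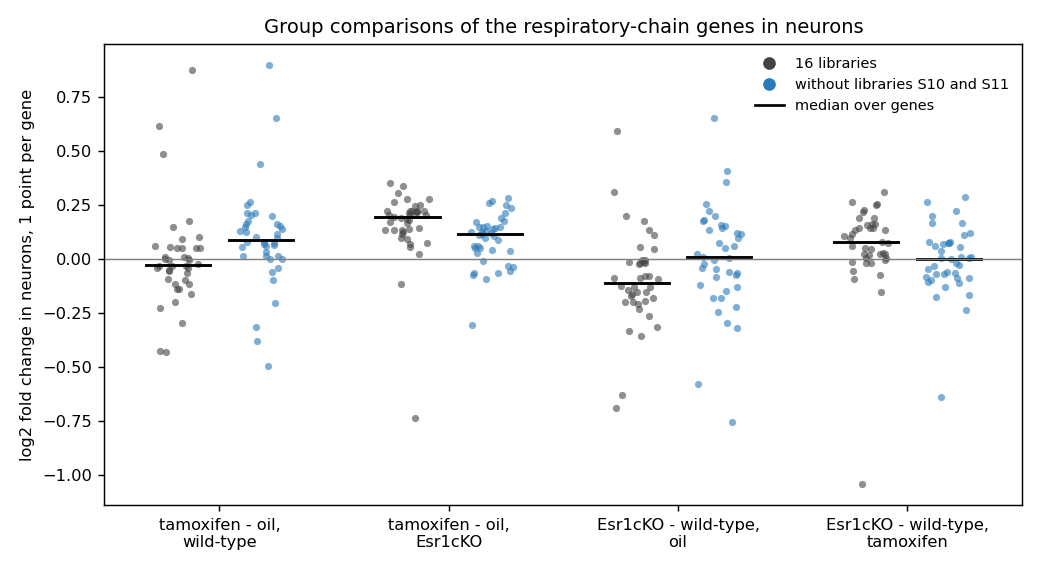
Log2 fold change in neurons (y axis) of each member tested, 1 point per gene, for 4 group contrasts (x axis), with all 16 libraries (dark grey) and without libraries S10 and S11 (blue), and a line at the median. With 16 libraries 38 of 40 points lie above 0 for tamoxifen in Esr1cKO mice, and 31 of 40 without the pair. The median over all genes in that contrast was -0.02, and -0.006 without the pair.

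Of single genes in neurons, Cox5a, a subunit at the face of complex IV inside the mitochondrion, had the smallest unadjusted p. In wild-type oil libraries it stood at 255 (S1), 187 (S5) and 176 CPM (S10). In wild-type tamoxifen libraries it stood at 167 (S3), 177 (S8), 122 (S9), 111 (S13) and 184 CPM (S16). In Esr1cKO oil libraries the values were 154 (S4), 129 (S7), 111 (S12) and 99.97 CPM (S14), and in Esr1cKO tamoxifen libraries 153 (S2), 145 (S6), 167 (S11) and 125 CPM (S15). Both Esr1cKO groups lay below the 3 wild-type oil libraries, and the wild-type tamoxifen libraries overlapped all other groups. Cox5a was picked by its p, and how many of all genes separate these groups in this way was not counted. For Esr1cKO against wild-type under oil the log2 fold change was -0.69 ± 0.21, with an edgeR p of 0.00429 and an adjusted p of 0.99998. Without S10 and S11 it was -0.76, with an adjusted p of 0.331. With all 16 libraries, Cox5a had -0.43 ± 0.20 between tamoxifen and oil in wild-type mice (edgeR, unadjusted 0.0454). Its interaction was -0.68 ± 0.28 (adjusted p = 0.939 by edgeR).

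The other genes with the smallest unadjusted p in neurons did not pass the threshold. Their values here are from all 16 libraries. For tamoxifen in wild-type mice Atp5sl had 0.62 ± 0.25 and Cox6a2 0.88 ± 0.51, and in Esr1cKO mice Uqcrfs1 had 0.35 ± 0.16, Uqcr11 0.31 ± 0.15 and Cox6a1 0.28 ± 0.16. For the interaction Cox7c had -0.51 ± 0.27 and Uqcrfs1 -0.39 ± 0.24. For Esr1cKO against wild-type under oil Uqcrc1 had -0.36 ± 0.17 and Atp5g2 -0.63 ± 0.35, and under tamoxifen Atp5k had 0.31 ± 0.14, Atp5j2 0.27 ± 0.13 and Cox7b2 -1.04 ± 0.54. Uqcrfs1 stood at 147 ± 29.1 CPM in Esr1cKO oil and 190 ± 21.5 in Esr1cKO tamoxifen neurons, and Atp5k at 345 ± 30.3 in wild-type tamoxifen and 420 ± 17.8 in Esr1cKO tamoxifen neurons.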

How the data were processed

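The authors deposited, for each of 16 mice, a table of UMI counts per gene and cell barcode, as whole numbers with no normalization and with replicates not pooled. Per the labels, reads were processed with STAR 2.6 and Seurat 3.6.1 on mm10; the counting annotation is not given in the sources used here. The study's limits were used to keep cells: above 200 and below 4000 genes, with a mitochondrial share below 15%. Cells were integrated and clustered in Seurat 5.3.0 (R 4.3.3) over 30 dimensions and 20 principal components at a resolution of 0.05, with the 44 genes removed from the variable genes, and clusters were named from at least 3 marker genes. Scrublet in scanpy 1.11.5 called 0.887% of cells doublets, which stayed in.

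UMIs were summed per library and type. A type, with at least 10 cells in a library (3 for a neuron type, in at least 4 libraries), was compared with the other cells of the same library in edgeR 4.0.16 (quasi-likelihood test, TMM, filterByExpr, library as a block), and the 4 groups in 1 fit per type. Values in the text are UMIs per 1000000 UMIs of a type and library (CPM). P-values were two-sided and adjusted by Benjamini-Hochberg over all genes of a fit, at a threshold of 0.05. The SE of an edgeR fold change is its absolute log2 value divided by the square root of the test's F statistic. It thus follows from the test and is not a separate estimate. The fits were tested on simulated data. Because a library is 1 mouse, p-values rest on the spread between mice, which edgeR estimates with information pooled over genes. In mural cells the p-values were read from a normal distribution of the test statistic, so a gene's own spread between mice had no weight. The very small p-values there, such as that of Cox4i2, depend on this pooling. Samples were grouped by the labels. Comparison of levels rests on counts of 1717570 to 5457030 UMIs per library.

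The members, gene lists and tests were chosen with earlier results of these data known. The genes named are the isoform genes, the core subunit genes, the subunit c genes, the widely expressed isoforms, at most 3 called genes per type and direction with the largest change and, for groups without calls, the 3 with the smallest p in neurons. Genes that held under all scalings were named with their values in view. Alternatives included DESeq2 1.42.0 (size factors or test), no filter, leaving out S10 and S11 or each library in turn, a mitochondrial share under 5%, leaving out mitochondrial genes or doublets, wild-type libraries alone, a resolution of 0.5, and terms for S10 and S11 or for successive fours of library numbers. Leaving out shared barcodes and scaling by library totals were added after seeing the data. Per the study's methods the groups ran in parallel over 4 days with 4 mice a day, but the labels give no day. One neuron type is not reported here by itself.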

Additional observations from a re-analysis of the deposited data

Results flagged for a closer look

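Of 66 groups of 4 or 5 libraries examined for a sample far from the others, 1 was marked, and chance marks about 1 in 20. In neurons of wild-type tamoxifen mice, library S16 gave 1.75% of its UMIs to the 44 genes, against 1.35% to 1.46% in the other 4 libraries. Its gap to the nearest library was 0.724 of the range of the group, and the limit for 5 samples is 0.71.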

How the results depend on the processing

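Counts are of members called. Scaling by DESeq2's size factors gave 7 higher and 25 lower in endothelial cells (13 and 12 in the report), 8 higher in mural cells (25), 2 higher and 15 lower in fibroblasts (6 and 6), and 0 lower in Hba-a2-led (31), 0 in Ndnf-led (27) and 9 in Ppp1r17-led cells (17). DESeq2's test gave 7 and 24, 8, and 2 and 15 in the same 3 cell types. Library totals gave 7 higher and 17 lower in astrocytes (18 and 8), 1 and 29 in oligodendrocytes (15 and 13), 6 and 27 in endothelial cells, and 0 lower in Hba-a2-led, 10 in Slc6a3-led (36), 0 in Ndnf-led and 8 in Ppp1r17-led cells. A mitochondrial share under 5% gave 4 and 15 in astrocytes, 3 and 23 in oligodendrocytes, 7 higher in endothelial cells, 1 higher in mural cells, 1 and 14 in fibroblasts, 0 lower in Hba-a2-led, 8 in Slc6a3-led, 3 in Ndnf-led and 9 in Ppp1r17-led cells, and 2 higher in Hcrt-led neurons (17). With no filter there were 9 and 22 in oligodendrocytes, 8 and 28 in endothelial cells, 3 and 15 in fibroblasts, 2 higher in Hcrt-led and 5 in Foxb1-led neurons (24), and 33 lower in Ppp1r17-led neurons. Wild-type libraries alone gave 4 lower in astrocytes, 5 in oligodendrocytes, 16 in ependymal cells (25), 3 higher and 0 lower in fibroblasts, 18 lower in Hba-a2-led, 12 in Ndnf-led, 16 in Vip-led (25) and 6 in Ppp1r17-led cells, and 5 higher in Hcrt-led and 14 in Foxb1-led neurons, with fewer samples. In fibroblasts, leaving out mitochondrial genes gave 2 higher and 12 lower, and leaving out doublets, shared barcodes or S10 and S11, or a resolution of 0.5, gave 3 higher each. Without S10 and S11, Ppp1r17-led neurons had 9 lower. With each library left out in turn, fibroblasts had 2 to 7 higher and 4 to 10 lower (10 without S10) and Ppp1r17-led neurons 10 to 19 lower. Atp5g2 in neurons, which did not pass the test, turned from 0.014 to -0.0428 under size factors, -0.0387 under DESeq2's test, -0.0273 without a filter, -0.0337 without S10 and S11 and -0.00735 without shared barcodes, and ran from -0.0217 to 0.0501 with 1 library left out. The cause was not tested for these changes. Of the main results, 286 values stayed and 63 moved under other alternatives, and 614 stayed and 10 moved with 1 library left out. A count stayed if it was equal to the main count or within 1.5 times of it. A summed share stayed if its mean moved by less than the SD between libraries. No paired analysis was possible because the labels give neither shared replicate numbers nor the days on which mice were run. A block for successive fours of library numbers, which need not be those days, called 0 members. Depth limits rare isoform genes such as Cox8b and Cox8c.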

Other observations

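The other lists of the respiratory chain were also counted in the cell types between the extremes, with edgeR at an adjusted p under 0.05. These lists were counted under TMM alone. In polydendrocytes 23 of 36 complex I genes were lower and 1 higher (median -0.22, background 33.5% and 31.2%), and mt-Cytb and mt-Co1 were both lower. In endothelial cells 19 of 37 complex I genes were lower and 7 higher (background 40.3% and 36.2%). Oligodendrocytes had 18 of 36 complex I genes higher and 9 lower (background 32.8% and 42.6%), with both mitochondrial genes higher (median 0.82). Astrocytes had 8 higher and 10 lower, below the background of 32% and 41.6% in both directions. In ependymal cells 16 of 36 were lower and 5 higher (background 34.8% and 30.1%). Of the 8 regulators of mitochondrial gene expression, 4 were higher in astrocytes and 0 lower, and 3 were higher and 1 lower in ependymal cells. In microglia 2 were higher and 3 lower. There Ppargc1a stood at -1.85 and Tfam, the factor that packages and transcribes mitochondrial DNA, at -0.58. Gabpa and Nrf1 were the higher genes, at 0.49 and 0.37.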
